A study of Mus musculus with 2 samples.

Results

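Krt25, Krt27, Krt28, Krt71, Krt73, Tchh and Krt35 are structural genes of the growing hair, and Krt84 is classed with the hair keratins. All 8 were followed through skin sections from IMQ-treated mice. They were taken by symbol, and all 8 were found among the 19465 genes of the files, once each and in both sections. The question was whether their UMIs (unique molecular identifiers, each counting 1 captured probe product) lay together in the same spots, as in growing follicles, or were spread like those of the olfactory receptor genes (Olfr), which skin is not known to use as a group and which served as the background.

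Visium CytAssist spatial transcriptomics, a probe-based method for formalin-fixed tissue, had been run on 1 section of S1pr2 f/f skin and 1 section of S1pr2 f/f K14-Cre skin. Both groups carried floxed S1pr2 (sphingosine-1-phosphate receptor 2), and the second also carried Cre under the keratin 14 promoter, which is active in basal keratinocytes, the outer root sheath included. The mice were 8 weeks old, were depilated on the back and received 62.5 mg of 5% imiquimod (IMQ) cream daily for 7 days, so neither section is untreated. With 1 section for each genotype there is no test between them, and genotype, animal, section plane, hair cycle stage and library cannot be told apart. The S1pr2 f/f section held 1282 spots and 5315351 UMIs (median 3542.5 per spot), and the S1pr2 f/f K14-Cre section held 981 spots and 2845826 UMIs (median 2319). The sections shared 357 barcodes, which mark array positions and not cells. S1pr2 had 154 UMIs in S1pr2 f/f and 54 in S1pr2 f/f K14-Cre, or 29.0 CPM (counts per 1000000 UMIs) and 19.0 CPM. The highest Olfr gene had 36 and 57 UMIs in these sections, so S1pr2 was above every Olfr gene in S1pr2 f/f. In S1pr2 f/f K14-Cre it was just below the highest but above the 95th percentile of the Olfr genes, 33 UMIs.

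A hair grows from the matrix of a follicle in anagen, the growth phase, and the follicle is built of concentric sheaths. The inner root sheath moulds the shaft and is filled with its own type I and type II keratins, which pair into filaments, and with trichohyalin. In telogen, the resting phase, inner root sheath and shaft keratins are no longer made, whereas the outer root sheath and bulge persist with Krt15 and Krt17.

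The inner root sheath genes come first. Krt25, Krt27 and Krt28 are type I keratins of the sheath and are neighbours on chromosome 11 (chr11:99315516-99322951, chr11:99345565-99351118 and chr11:99365007-99374903, GRCm38). Krt71 (chr15:101733949-101743097) and Krt73 (chr15:101793304-101802360) are their type II partners. Tchh (chr3:93442330-93449077) codes for trichohyalin, which binds the keratin filaments together in the sheath and in the medulla. Krt35 (chr11:100092192-100096224) is a type I hair keratin of the matrix, precortex and cuticle. Krt84 (chr15:101525026-101532820) is classed as a type II hair keratin, and whether the follicles of these sections make it was not tested. Both are called hair shaft keratins below, for Krt84 as a label only. The positions are those of whole genes in the RefSeq annotation, since the probe positions were not among the files used here.

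All 8 genes had few UMIs. Krt25 had 16 UMIs in S1pr2 f/f, Krt27 17, Krt28 21, Krt71 27, Krt73 16, Tchh 44, Krt35 13 and Krt84 39. The S1pr2 f/f K14-Cre counts were 20 UMIs for Krt25, 17 for Krt27, 20 for Krt28, 19 for Krt71, 20 for Krt73, 42 for Tchh, 25 for Krt35 and 75 for Krt84. Tchh and Krt84 were the highest in both sections, and the other 6 lay within 13 to 27 UMIs. UMIs of different genes depend on their probes, so this order is no order of expression, and the level per length cannot be given.

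An Olfr gene had a median of 11 UMIs in S1pr2 f/f and 16 in S1pr2 f/f K14-Cre, over 970 Olfr genes. Tchh and Krt84 had more UMIs than every Olfr gene in S1pr2 f/f, where the highest Olfr gene had 36. Only Krt84 was above the highest Olfr gene of S1pr2 f/f K14-Cre (57 UMIs), and 11 Olfr genes had at least as many UMIs as Tchh. The inner root sheath keratins were inside the Olfr range: 12 Olfr genes had at least the UMIs of Krt71 in S1pr2 f/f and 225 had at least those of Krt25 or of Krt73. Between 356 and 456 Olfr genes had at least the UMIs of each of the 5 inner root sheath keratins in S1pr2 f/f K14-Cre. Taste and vomeronasal receptor genes gave a further background, in which 3 genes had at least the UMIs of Tchh in S1pr2 f/f and 3 had at least those of Krt84 in S1pr2 f/f K14-Cre.

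The members were spread thinly. At least 1 member UMI lay in 143 of the 1282 spots in S1pr2 f/f (11.2%, 95% Clopper-Pearson interval 9.48 to 13.01) and in 121 of the 981 spots in S1pr2 f/f K14-Cre (12.3%, 10.3 to 14.6). Intervals here and later cover counting error only. Those on UMI counts take UMIs as independent, so they are too narrow for a gene whose UMIs lie together in few spots. Krt84 was in 34 spots of S1pr2 f/f, Tchh in 30, Krt71 in 21, Krt28 in 17, Krt25 in 16, Krt27 in 15, Krt73 in 14 and Krt35 in 8. The K14-Cre section had Krt84 in 33 spots, Tchh in 18, Krt35 in 17, Krt25, Krt27 and Krt73 in 14 each, Krt28 in 12 and Krt71 in 9. The most UMIs of 1 gene in 1 spot were 5 for Tchh in S1pr2 f/f and 7 for Krt84 in S1pr2 f/f K14-Cre, against 10 and 11 for an Olfr gene. A spot that held a member gene held on average 1.25 UMIs of it in S1pr2 f/f, as for an Olfr gene (1.25), and 1.82 in S1pr2 f/f K14-Cre (Olfr 1.47). UMIs placed independently by depth would have put Krt84 in 37.96 spots of S1pr2 f/f and 70.5 of S1pr2 f/f K14-Cre, and Tchh in 42.7 and 40.6. Tchh thus lay in fewer spots than this in both sections. Krt84 was near it in S1pr2 f/f and well below it in S1pr2 f/f K14-Cre. The same comparison was not made for the Olfr genes, so this is no trait of the members.

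Member UMIs also lay in spots rich in markers of muscle, a tissue that should lack them. In the 55 spots richest in skeletal muscle markers in S1pr2 f/f, 8 held a member UMI (14.5%), with a median of 6722 UMIs per spot against 4048 in the other spots. The members there were at 29.5 CPM, against 36.6 CPM elsewhere, a ratio of 0.81 (95% interval 0.41 to 1.45). The summed Olfr genes had a ratio of 0.65 in the same spots. Other skin keratins lay there too: Krt75 in 9 of the 55 spots, Krt15 in 26 and Krt10 in 53, with ratios of 0.36, 0.53 and 0.14. Whether these spots held other tissue besides muscle was not tested. A member UMI in them does not show background by itself. In the 47 muscle-rich spots of S1pr2 f/f K14-Cre, 5 held a member UMI (10.6%), with medians of 5525 and 2303.5 UMIs per spot. There the 6 inner root sheath genes had a ratio of 0.70 (0.34 to 1.30), an interval wholly above the Olfr ratio of 0.29. The 2 hair shaft keratins had 0 of their 100 UMIs in these spots (ratio interval 0 to 0.30).

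**Figure D1:**
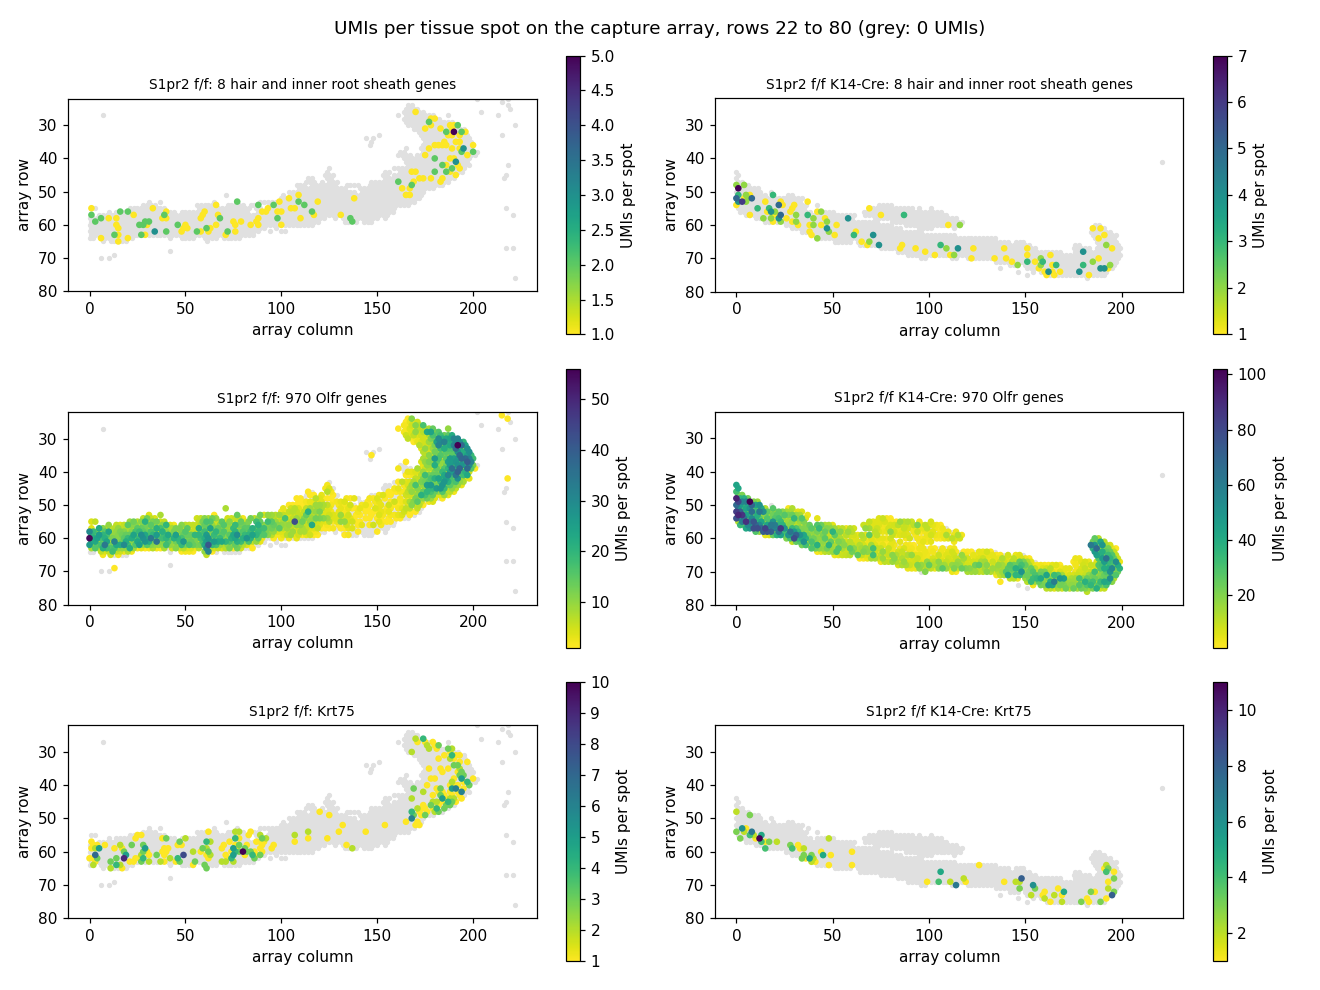
UMIs per tissue spot by array column and row, for the 8 genes summed, for the 970 Olfr genes summed and for Krt75, a companion layer keratin of the follicle. Each point is a spot, grey where the count is 0, and colour scales differ between panels. Rows 22 to 80 are drawn; 43 spots of S1pr2 f/f and 6 of S1pr2 f/f K14-Cre lie outside them and hold 0 member UMIs. The members lie along the whole strip, mostly at 1 or 2 UMIs, and are few where the Olfr genes are few.

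The members did not share spots more often than their frequencies and the spot depth give. There were 12 spots with 2 member genes in S1pr2 f/f, with 12.4 expected, and 0 with 3 or more. The S1pr2 f/f K14-Cre section had 10 such spots, with 10.4 expected, and 0 with 3 or more. A count of 0 spots allows a share of up to 0.234% and 0.306% of the spots. Summed over the 28 pairs of genes, the shared spots were 0.84 times the expected number in S1pr2 f/f (95% Poisson interval 0.44 to 1.47) and 0.82 times in S1pr2 f/f K14-Cre (0.39 to 1.51). The same ratio over all pairs of Olfr genes was 1.02 and 1.10. Both intervals include these Olfr values, and they also leave room for a modest excess or deficit.

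The sheath keratins that pair into filaments had no more in common. The 6 pairs of a type I keratin (Krt25, Krt27, Krt28) with a type II keratin (Krt71, Krt73) shared 0 spots in S1pr2 f/f, with 2.34 expected, and 1 spot in S1pr2 f/f K14-Cre, with 1.54 expected. That spot held Krt28 and Krt71 together. The pair that shared the most spots was Krt25 with Krt27 in S1pr2 f/f K14-Cre, with 3 spots against 0.327 expected, and in S1pr2 f/f these neighbouring genes shared 0 spots. It was singled out after its value was seen, as the highest of 28 pairs. In S1pr2 f/f the highest pairs, Krt25 with Krt84 and Tchh with Krt84, shared 2 spots each.

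Each gene was also read in the 5% of spots, among those with at least 500 UMIs, that had the largest excess of the other 7 genes. This leaves the gene itself out of the choice of spots. These were 55 spots for each gene in S1pr2 f/f, and 6 of the 8 genes (Krt25, Krt27, Krt28, Krt71, Krt73 and Krt35) had 0 UMIs in them. Tchh had 1 of its UMIs there and 41 elsewhere, and Krt84 had 2 there and 37 elsewhere. Summed, 3 UMIs lay in the spots rich in the other genes and 187 outside, a CPM ratio of 0.27 (95% interval 0.06 to 0.81). The summed Olfr genes had a ratio of 1.13 in the same spots. The member value rests on 3 UMIs, and with the top 10% of spots it was 0.83 (0.49 to 1.34).

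In S1pr2 f/f K14-Cre, with 47 spots for each gene, 13 UMIs lay inside and 224 outside, a ratio of 0.75 (0.40 to 1.32), against 1.41 for the Olfr genes. Krt27 had the highest ratio, 3.01 (0.55 to 10.9), from 3 UMIs inside and 13 outside. Krt28 followed with 1.53 (0.17 to 6.38), Tchh with 1.22 (0.32 to 3.38) and Krt35 with 1.08 (0.12 to 4.37). Krt84 had a ratio of 0.40 (0.05 to 1.51), and Krt25, Krt71 and Krt73 had 0 UMIs inside. Each of these intervals includes 1. A gene was called at a ratio of at least 2 with at least 10 UMIs, which took in 0 of 8 members in S1pr2 f/f and 1 of 8, Krt27, in S1pr2 f/f K14-Cre. In the spots chosen by all 8 members, 9.21% of all other genes passed that ratio in S1pr2 f/f and 15.9% in S1pr2 f/f K14-Cre, or 20.8% and 21.5% of the genes whose UMIs were in the range of the members.

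**Figure D2:**
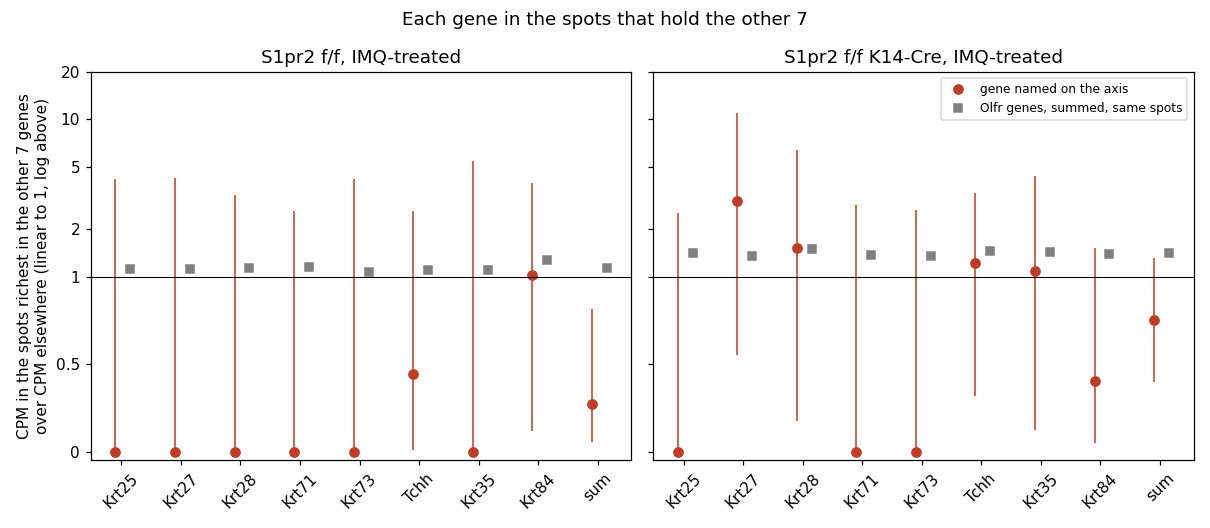
Ratio of CPM in the spots richest in the other 7 genes to CPM elsewhere (vertical axis, linear to 1 and logarithmic above), for each gene and for their sum. Red points are the gene with its 95% conditional binomial interval, and grey squares are the summed Olfr genes in the same spots. The sum is at 0.27 in S1pr2 f/f and 0.75 in S1pr2 f/f K14-Cre, below the Olfr squares.

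A dispersion index, the squared deviations of a gene's UMIs from those given by spot depth over the expected value, is near 1 when UMIs follow depth. The members had an index of 0.903 (Krt28) to 2.64 (Tchh) in S1pr2 f/f, where the Olfr genes with at least 10 UMIs had a median of 1.30 and a 95th percentile of 3.33. The members of S1pr2 f/f K14-Cre had 1.19 (Krt28) to 2.72 (Tchh), with an Olfr median of 1.87 and a 95th percentile of 3.67. Above the 95th Olfr percentile, the mark for a gathered gene, were 0 of 8 members in each section. Of all other genes with at least 10 UMIs, 2.89% passed it in S1pr2 f/f and 4.56% in S1pr2 f/f K14-Cre, and 3.65% and 5.24% of those with UMIs in the range of the members. Read against these shares, 0 of 8 is near the background. The 8 genes summed had an index of 1.50 and 2.15, while the mark comes from single Olfr genes. Spots with as few as 1 UMI enter the index, and a UMI in such a shallow spot adds a large term. The mark can therefore partly reflect shallow spots. With only spots of at least 500 UMIs it was 2.65 in S1pr2 f/f and 3.59 in S1pr2 f/f K14-Cre. Above it were again 0 of 8 members in each section.

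The index did not pick out every gene with a known place in the follicle. Krt75, with more UMIs than any member (482 and 214), had an index of 1.84 in S1pr2 f/f, below the 95th percentile, and 3.76 in S1pr2 f/f K14-Cre, above it. Krt15 and Krt17, the outer root sheath and bulge keratins, had 7.55 and 7.36 in S1pr2 f/f and 7.83 and 7.67 in S1pr2 f/f K14-Cre, above the mark in both. They too had more UMIs than any member. An index below the mark therefore does not show that a gene with as few UMIs as a member is spread. Tchh was the member nearest to the mark in both sections, and with UMIs expected from the Olfr UMIs of a spot and its neighbours in place of depth it had 5.79 in S1pr2 f/f, above the 95th percentile of 3.27 in that setting. A single spot held 5 of its 44 UMIs. Without that spot the Tchh index against depth was 2.67, against 2.64 with it. The setting with Olfr UMIs was not run without that spot.

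**Figure D3:**
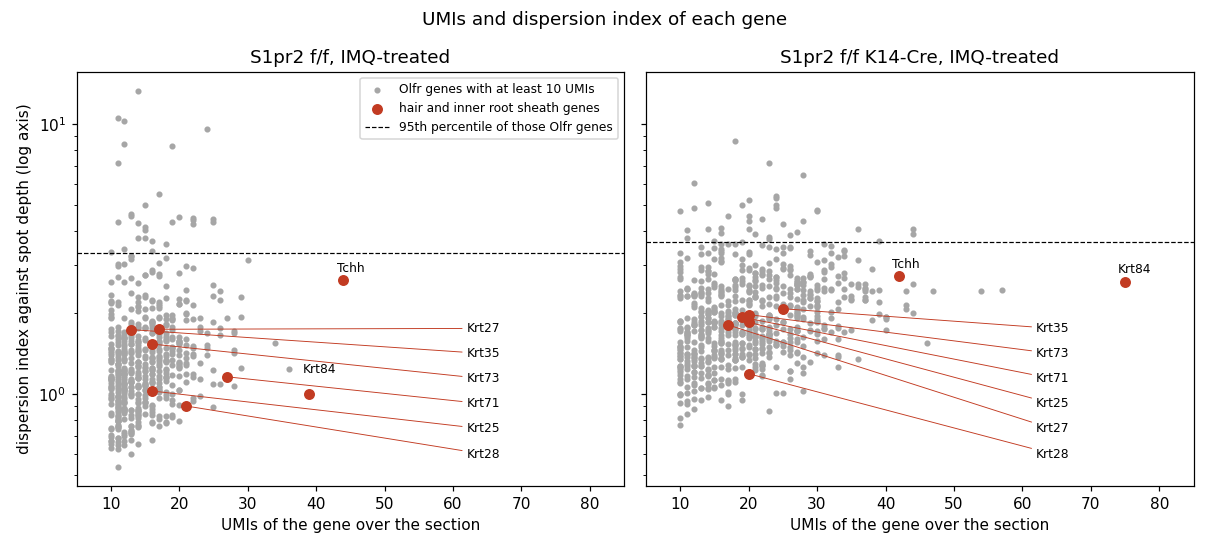
Dispersion index (logarithmic vertical axis) against UMIs of the gene over the section, for the 8 genes (red) and for the Olfr genes with at least 10 UMIs (grey). The dashed line is the 95th percentile of those Olfr genes, and all 8 genes lie below it in both sections.

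Neighbouring spots gave the same picture. A follicle can span adjacent spots, so pairs of adjacent spots that held the same member gene were counted. There were 12 such pairs in S1pr2 f/f, with 12.1 expected (ratio 0.99, 0.51 to 1.73), and 9 in S1pr2 f/f K14-Cre, with 9.91 expected (0.91, 0.42 to 1.72). The Olfr genes had ratios of 0.99 and 1.06. Genes with a known place had more adjacent pairs than expected by this count: Krt75 had ratios of 1.29 and 1.73, Krt15 1.38 and 1.99, and Awat1, a wax synthesis enzyme of the sebaceous gland, 1.83 and 2.46. These genes had 110 to 1676 UMIs in a section, against 13 to 75 for a member. They do not show that this count would find a gathered gene at the depth of the members. Adjacent pairs that held any member at both ends, the same or not, were 1.02 and 1.07 times the expected number.

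The members were then read in spots rich in markers of other compartments, each time 5% of the deep spots, those with at least 500 UMIs. In the spots richest in Krt26, Krt72 and Krt75 (other inner root sheath and companion layer keratins, with Krt75 at 482 of 522 UMIs in S1pr2 f/f and 214 of 266 in S1pr2 f/f K14-Cre), the summed members had a ratio of 1.00 (0.55 to 1.69) in S1pr2 f/f and 1.13 (0.64 to 1.85) in S1pr2 f/f K14-Cre. The Olfr ratios were 0.96 and 1.45, and Krt75, which helped to choose the spots, had 10.3 and 46.6. In the spots richest in the hair matrix and cuticle list, the members had 0.55 (0.27 to 1.00) and 0.87 (0.49 to 1.44), with Olfr ratios of 0.56 and 1.19. Tgm3 (1664), Ovol1 (1231) and Gata3 (638) gave most of the 4017 UMIs of that list in S1pr2 f/f. Lef1, Msx2 and Hoxc13 had 27, 61 and 40. The epidermal keratin Krt10 had a ratio of 3.32 in those S1pr2 f/f spots, so the set does not single out hair matrix. Across 8 spot sets and 8 members, 64 comparisons a section, the interval left out the Olfr ratio in 0 comparisons in S1pr2 f/f and in 5 in S1pr2 f/f K14-Cre. Those 5 were Krt84, higher in outer root sheath and bulge spots and lower in hair matrix spots, Krt28 higher and Tchh lower in interfollicular epidermis spots, and Tchh higher in muscle spots. With 64 comparisons a section, some intervals can leave out the Olfr ratio by counting error alone. The share of other genes whose interval did so was not counted. The 5 are therefore given as a description and do not place these genes.

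Krt84 in the outer root sheath and bulge spots of S1pr2 f/f K14-Cre had the most UMIs of those 5 comparisons. It was followed further after its value was seen. Krt17 gave 2987 of the 4171 UMIs of the list that chose these spots, and 10734 of 13643 in S1pr2 f/f. The set is thus mainly one of Krt17-rich spots and does not place a gene in the outer root sheath or bulge. In it lay 24 Krt84 UMIs in 47 spots, with 51 in the other 900. That is 83.1 CPM against 20.02 CPM, a Krt84 ratio of 4.15 (2.44 to 6.87). Krt84 was found in 8 of the 47 spots (17.0%, 7.65 to 30.8) and in 25 of the others (2.78%, 1.81 to 4.07), at median depths of 5217 and 2318 UMIs. An average Olfr gene was in 2.67% and 1.12% of the same spots. The Olfr genes had a summed ratio of 1.24, so Krt84 relative to them had 3.35 (1.97 to 5.54). With each spot thinned to 1000 UMIs, 2 Krt84 UMIs were left inside and 26 outside, a ratio of 1.35 (0.15 to 5.38). With the top 2% of spots in place of 5% it was 2.09 (0.87 to 4.35), an interval that includes 1. Without the 3 spots with the most Krt84 UMIs it was 2.83 (1.40 to 5.36).

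The same set in S1pr2 f/f held 2 of the Krt84 UMIs and the other spots 37, a ratio of 0.45 (0.05 to 1.76). The 6 inner root sheath genes had ratios of 0.87 (0.45 to 1.55) and 0.85 (0.43 to 1.53) in the outer root sheath and bulge spots of the sections, and Krt35 had 2 of its 25 UMIs there in S1pr2 f/f K14-Cre. Of the members, 0 of 8 passed a ratio of 2 in these spots in S1pr2 f/f and 2 of 8, Krt84 and Krt28, in S1pr2 f/f K14-Cre. Of the genes with UMIs in the range of the members, 7.98% and 18.4% did. Krt28 had its 4 UMIs of that set in 1 spot. Of 724 Olfr genes with at least 10 UMIs in the deep spots of S1pr2 f/f K14-Cre, 52 had a ratio at least as high as that of Krt84. The spots of S1pr2 f/f K14-Cre with the most Krt84, 7 UMIs outside this set and 6 inside it, held 81 and 87 Olfr UMIs.

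**Figure D4:**
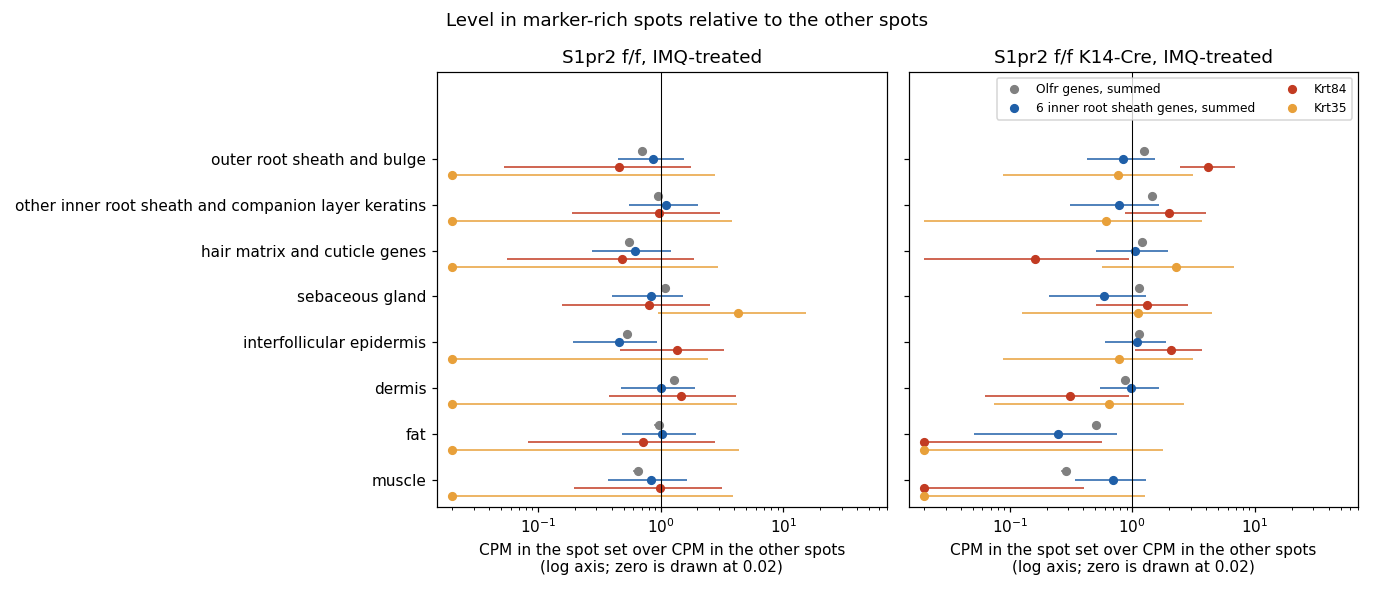
Ratio of CPM in marker-rich spots to CPM in the other spots (logarithmic horizontal axis, a ratio of 0 drawn at 0.02) for the summed Olfr genes (grey), the 6 inner root sheath genes summed (blue), Krt84 (red) and Krt35 (orange), with 95% intervals. The inner root sheath genes lie near the Olfr genes in most sets, but above them in the muscle spots of S1pr2 f/f K14-Cre. Krt84 is at 4.15 in the outer root sheath and bulge spots of that section.

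Between the sections, the members were higher in S1pr2 f/f K14-Cre per UMI, and so was the background. The summed members had 36.3 CPM (31.4 to 41.8) in S1pr2 f/f and 83.6 CPM (73.3 to 94.96) in S1pr2 f/f K14-Cre, a log2 ratio of 1.20 (0.92 to 1.49). The Olfr genes had 2074 CPM and 5746 CPM, a log2 ratio of 1.47 (1.44 to 1.51). Relative to Olfr UMIs the members were therefore at -0.27 (-0.55 to 0.01), and the sign of their difference turned. The median log2 ratio over all other genes was 0.38. Fewer cells of a type and less RNA per cell cannot be told apart in these sums.

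The 2 hair shaft keratins had the largest log2 ratios, 1.84 for both Krt84 (1.27 to 2.44) and Krt35 (0.82 to 2.93). Krt25 and Krt73 had 1.22 each, Krt27 0.90, Tchh and Krt28 0.83 each and Krt71 0.39. With the mark at 2-fold, 4 of 8 members were higher and 0 lower, while 27.5% of all other genes were at least 2-fold higher, 4.77% at least 2-fold lower, and 70.6% of Olfr genes at least 2-fold higher. Scaled to Olfr UMIs, 6 members were lower and 2, Krt35 and Krt84, higher, both at 0.37. The median of all other genes, 0.38 per UMI, is itself below the Olfr median of 1.47. A lower value on the Olfr scale is thus common among genes and is no trait of the members, and its share over all genes was not counted. Among the members the interval left out 0 for Krt71 alone, at -1.08 (-2.004 to -0.18). The 6 inner root sheath genes had 0.87 (0.52 to 1.22) per UMI and -0.60 (-0.95 to -0.25) relative to Olfr. Follicle keratins with many UMIs went the other way per UMI: Krt75 had -0.27, Krt15 -0.72 and Krt17 -0.94. Krt17 was in 964 spots of S1pr2 f/f and does not mark follicles alone. Genes of the interfollicular epidermis list fell too, with Krt14 at -1.12 and Krt10 at 7872 CPM in S1pr2 f/f and 969 CPM in S1pr2 f/f K14-Cre. Acta1 of muscle rose from 5978 to 18996 CPM. The fall is therefore not particular to the follicle.

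Within a section the members also moved with the Olfr share of a spot. Deep spots were placed in 3 equal groups by the Olfr share of their UMIs, after the data were seen. From the lowest to the highest group the members had 26.1 CPM, 34.6 CPM and 49.8 CPM in S1pr2 f/f, and 31.2 CPM, 92.5 CPM and 135 CPM in S1pr2 f/f K14-Cre. The Olfr genes, which set the groups, had 794 CPM in the lowest and 3724 CPM in the highest group of S1pr2 f/f, and 1582 CPM and 11711 CPM in S1pr2 f/f K14-Cre. Krt75 had 96.8, 74.3 and 106 CPM over the S1pr2 f/f groups, and 27.0, 65.9 and 148 CPM in S1pr2 f/f K14-Cre. From the lowest to the highest group Krt14 fell from 21658 to 10952 CPM in S1pr2 f/f. It rose from 1694 to 10603 CPM in S1pr2 f/f K14-Cre. The muscle gene Acta1 fell from 7888 to 3499 CPM in S1pr2 f/f and from 40403 to 2853 CPM in S1pr2 f/f K14-Cre. Tissue thus changes along with background in both sections, in different ways, and they cannot be told apart.

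Other hair genes had counts of the same size. Of 11 listed hair shaft keratins other than Krt35 and Krt84, 8 were found, all with at least 10 UMIs, and 0 of 8 in S1pr2 f/f and 1 of 8 in S1pr2 f/f K14-Cre were gathered by the index. Krt36 had the most UMIs of them, 35 and 60. Of 51 keratin-associated protein genes (Krtap), which fill the hair shaft between keratin filaments, 1 of 35 with at least 10 UMIs was gathered in S1pr2 f/f and 4 of 44 in S1pr2 f/f K14-Cre. Krtap4-6 was among the latter, with 39 UMIs and an index of 7.02. Summed, the 8 other hair shaft keratins had a log2 ratio of 1.53 between the sections and the Krtap genes 1.52, next to 1.47 for the Olfr genes. Krt26, an inner root sheath keratin, had 9 of its 18 UMIs in S1pr2 f/f in 1 spot, and Krt72 had 22 UMIs in 15 spots.

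Lists of other compartments differed by the same index. In both sections 7 of 8 interfollicular epidermis genes and 6 of 6 muscle genes passed the 95th Olfr percentile, lists whose median gene had 16913.5 and 11879 UMIs in S1pr2 f/f, far above any member. Of lists with fewer UMIs, 0 of 5 sebaceous gland, 0 of 7 dermal papilla and 0 of 5 melanocyte genes passed in either section, at medians of 107, 22 and 41 UMIs in S1pr2 f/f. Other such lists had genes that passed in S1pr2 f/f K14-Cre only. The hair matrix and cuticle list had 0 of 12 in S1pr2 f/f and 2 of 12, Tgm3 and Padi3, in S1pr2 f/f K14-Cre. Padi3 had 30 UMIs there and an index of 12.9. The index of Padi3 and of Krtap4-6 was not computed on deep spots alone, so these values do not show that their UMIs lie together. Developmental muscle genes had 0 of 5 and 3 of 5, at medians of 24 and 243 UMIs. The genes whose depth-corrected UMIs followed the summed members most closely over the deep spots were Hddc2, Cemip, Samd12, Wrap53 and Bloc1s4 in S1pr2 f/f (Pearson r 0.17 to 0.19 over 1096 spots). In S1pr2 f/f K14-Cre they were Cdca3, Pcdhgb7, Slc35e3, Popdc2 and Pi4ka (r 0.20 to 0.26 over 947 spots). The lists had 0 genes in common and none of these is a hair keratin. The points share library and depth, and correlations this weak in sparse counts are given as a description.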

How the data were processed

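UMI counts for each gene in each tissue spot, with array positions, were used as deposited, without normalization by the authors; the file headers name Space Ranger 3.0.0. The build named in the labels is mm10 (GRCm38), and the probe set is not given in the sources used here. CPM values are sums over spots divided by the total UMIs there. Spots with at least 1 UMI entered the dispersion index and counts of shared spots; spots with at least 500 UMIs entered spot sets and correlations. Expected shared and adjacent spots used probabilities in proportion to depth that sum to the number of spots holding the gene. Intervals (95%) are exact Poisson, Clopper-Pearson or conditional binomial and cover counting error only; a count of 0 was taken to allow 3. Medians of log2 ratios over all genes used a pseudocount of 0.5 UMIs. Genes needed at least 10 UMIs. With 1 section per genotype no test was run.

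The members, lists and rules were chosen with earlier results of these data known. Named were all members, the 5 genes most like their sum in each section among those with at least 50 UMIs, and up to 3 genes with the most UMIs of each list. Krtap4-6, Awat1, Acta1, Krt26, Krt72 and Padi3 were named after their values were seen. The comparison of adjacent Krt75, Krt15 and Awat1 spots, the groups by Olfr share and the alternatives for Krt84 were chosen after seeing the data. Calculations used Python 3.11.15, numpy 2.4.6, scipy 1.17.1 and pandas 2.3.3, figures matplotlib 3.10.9, and the index and ratios were tested on simulated data. Scale factors, images and other assays of the study were not used here.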

Additional observations from a re-analysis of the deposited data

How the results depend on the processing

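No paired analysis was possible because each genotype had 1 section. The summed dispersion index stayed below the 95th Olfr percentile in both sections under each alternative run. Thinning to 1000 UMIs left too few Olfr genes for a percentile in S1pr2 f/f and gave no value there. That percentile comes from single genes, and Krt75, with more UMIs than any member, was below it in S1pr2 f/f too. Staying below it therefore does not show that the members are spread. Of the leave-one-out ratios, the S1pr2 f/f value of 0.27 became 0 with the top 2% of spots, 0.83 with the top 10% and 0 with spots thinned to 1000 UMIs (0 of 41 UMIs inside), and the S1pr2 f/f K14-Cre value of 0.75 became 0 with the top 2%. No alternative brought either ratio above 1. The log2 ratio of the summed members between sections, 1.20, turned to -0.27 with Olfr UMIs in place of all UMIs, and was 0.92 with the mean Olfr UMIs taken off each member. With Olfr UMIs, 6 of 8 single genes changed sign: Krt25 and Krt73 from 1.22 to -0.25 each, Krt27 from 0.90 to -0.57, Krt28 and Tchh from 0.83 to -0.64 each and Krt71 from 0.39 to -1.08. Any gene between 0 and 1.47 per UMI changes sign on this scale, and the median of all other genes was 0.38. The change of sign is thus no trait of the members, and its share over all genes was not counted. Without Krt84, the member with the most UMIs, the sum had 0.98 (0.66 to 1.31). The ratio of Krt84 in outer root sheath and bulge spots of S1pr2 f/f K14-Cre was 2.09 (0.87 to 4.35) with the top 2% and 2.69 (1.61 to 4.42) with the top 10% of spots, chosen after seeing the data. Limits: a spot covers several cells, the members have 13 to 75 UMIs each, and a weak tendency to share spots would not be detectable at this depth.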
